A study of Mus musculus with 15 samples.

Results

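Nuclear RNA of cortical parvalbumin neurons was compared between mice made hypothyroid and then injected with thyroid hormone (PTU_TH, n = 4) and untreated mice (Ctrl, n = 4). The question was which genes stood above the untreated level a day after the hormone, and which stood below it. Genes were admitted by count alone: a symbol had to be in the count tables of both groups with at least 1 count in all 8 libraries, and predicted models (Gm numbers, Rik names and symbols with -ps) were left out. This gave 12553 genes of the 46380 symbols that all tables of the series share, and 12180 of them passed the filter on low counts. At the edge of the rule, 356 genes had a lowest count of exactly 1 and a median mean count of 7.75 per library, while 559 symbols had 0 counts in exactly 1 library and a median mean count of 6.50. A further 142 symbols had 0 counts in all 4 PTU_TH libraries and at least 10 in all 4 Ctrl libraries, and 14 symbols showed the reverse. The rule leaves both kinds out, so complete losses and gains are not described.

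All mice of both groups had the genotype PvCre ROSA-tomato-lox Thra+/+, in which Cre under the parvalbumin driver switches on a red fluorescent reporter and both alleles of the receptor gene Thra are wild type. PTU_TH mice ate pellets with propylthiouracil (PTU), a blocker of thyroid hormone synthesis, for 2 weeks and were injected intraperitoneally with thyroid hormone 24 h before the cortex was taken. Ctrl mice received neither. Fluorescent nuclei were sorted from the frozen cortex of single adult mice, and the titles number separate mice. The PTU and Mut groups served as references: PTU mice (n = 3) of the same genotype, with the diet and no injection, and Mut mice (n = 4), PvCre ROSA-tomato-lox ThraAMI/+ animals that express the dominant negative receptor TRalpha1L400R without diet or injection. The driver limits the sort to cells in which the parvalbumin promoter was active, and nuclear RNA leaves out the cytoplasm.

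Thyroid hormone acts mainly through nuclear receptors that stay bound to DNA, hold target genes down together with corepressors when no hormone is present, and raise transcription when hormone binds. Parvalbumin neurons are fast-spiking inhibitory cells of the cortex, wrapped in a perineuronal net of proteoglycans and dependent on fast potassium channels, and thyroid hormone is known to influence their maturation.

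The count tables came in 2 sets with different gene lists, 1 for PTU and PTU_TH and 1 for Ctrl and Mut. Library set and treatment are therefore the same split in this comparison and cannot be told apart by it. PTU libraries share the set and diet of PTU_TH, and their values are given beside most of the genes described. PTU_TH libraries held 12957838 to 19141683 counts and Ctrl libraries 23786090 to 25377904. The share of counts in genes that span over 100 kb was 25.1% to 41.0% in PTU_TH and 30.2% to 40.6% in Ctrl. Y-linked genes were counted at 299 CPM and 310 CPM in PTU_TH replicates 4 and 3 and at 457 CPM in Ctrl replicate 2, and at no more than 3.26 CPM in the other 5 libraries. Levels are given in CPM, counts scaled to library size, on 1 scale for all libraries.

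The sorted nuclei carried the marker of their label in every library. Pvalb, the calcium-binding protein that names these neurons, stood at 123 ± 9.77 CPM in Ctrl (SD, n = 4), 99.7 CPM in PTU and 137 ± 12.8 CPM in PTU_TH (SD, n = 4), a log2 difference from Ctrl of 0.14 with a 95% interval of −0.10 to 0.38. Of 17 tested parvalbumin neuron markers 0 were higher and 1, the tachykinin gene Tac1, was lower, by the test described below. This was 5.88%, beside 11.1% of all tested genes in either direction. Of the 17 markers 2 had an unadjusted p under 0.05, and Dlx1, Dlx6 and Cox6a2 were listed at 0 in all 8 libraries. Genes that most neurons use, such as Nefl, Tubb3 and Cox4i1, were also listed at 0, so a 0 is not read as absence. The summed markers of other cells ranged as follows in Ctrl and in PTU_TH: 455 to 545 and 493 to 600 CPM for excitatory neurons, 90.9 to 124 and 81.4 to 132 CPM for astrocytes, 116 to 147 and 89.7 to 219 CPM for oligodendrocytes, 81.6 to 99.6 and 60.2 to 95.6 CPM for microglia, and at most 17.8 and 15.4 CPM for vessels. Other interneuron markers summed to 147 to 174 CPM in Ctrl and 97.1 to 167 CPM in PTU_TH. In bulk RNA of this kind, fewer cells of a type and less RNA per cell cannot be told apart.

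A gene is called here when its p under 0.05 in edgeR's quasi-likelihood test held after adjustment by Benjamini and Hochberg. Of the 12180 genes tested, 1347 were called between PTU_TH and Ctrl (11.1%), 657 higher (5.39%) and 690 lower (5.67%); among all 15814 genes of the fit, predicted models included, 17.8% were called, 4.72% higher and 13.1% lower. Falls were the larger: the median log2 difference was 0.63 among the higher genes and −0.96 among the lower ones, and 54 lower but 8 higher genes passed a log2 size of 3. With only the admitted genes in the fit, 359 were higher and 610 lower. Without PTU_TH replicate 3 the calls came to 869, of which 355 were higher, and without PTU_TH replicate 1 the higher calls came to 432. Called genes differed in length: the median gene span was 20.5 kb among the higher, 47.0 kb among the lower and 28.3 kb among all tested genes, and 9.01%, 25.5% and 17.5% of them exceeded 100 kb. With sex, read from Y-linked counts, as a covariate, 1718 genes were called, 1298 of them among the 1347. With a gene length trend removed, 2125 were called, 1271 of them among the 1347. Beyond these refits, the part of length and of the Y-linked split in the calls was not tested.

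**Figure D1:**
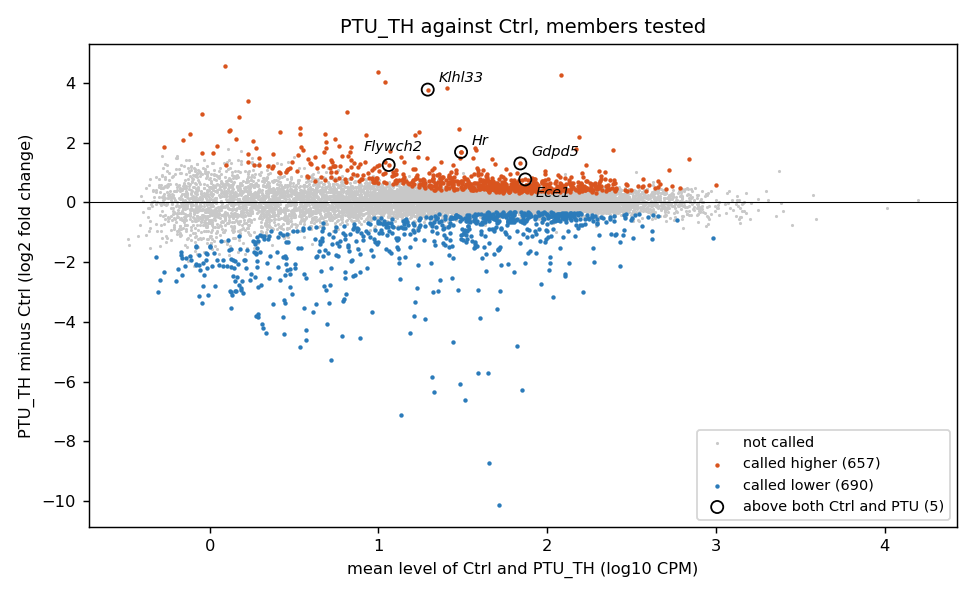
Each point is 1 of the 12180 genes tested, by its mean level over Ctrl and PTU_TH (log10 CPM, horizontal) and its log2 fold change of PTU_TH over Ctrl (vertical); orange points were called higher (657), blue points lower (690), grey points were not called, and 5 circled genes were above both Ctrl and PTU. Fitted falls extend to −10.13, whereas the circled genes lie between 0.77 and 3.77.

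The 4 PTU_TH libraries lay above all Ctrl libraries in 593 of the 657 higher genes and below them in 649 of the 690 lower genes, beside 8.98% and 7.87% of all tested genes. Few genes separated PTU_TH from PTU: 63 were called in that contrast (0.515%), 54 higher (0.442%) and 9 lower (0.0736%). The PTU_TH libraries overlapped the PTU range in 486 of the 657 higher genes (74.0%) and in 616 of the 690 lower genes (89.3%), beside 91.1% of all tested genes, so that the share among the lower genes was near the background. A stricter split, all 7 PTU and PTU_TH libraries outside the range of all 8 Ctrl and Mut libraries, was met by 32.4% of the higher and 64.1% of the lower genes, beside 2.45% of all tested genes above and 4.15% below. Such a gene follows the library set and the diet alike. A joint test was therefore made in a fit of Ctrl, PTU and PTU_TH, which asks for each gene that PTU_TH differ from Ctrl and from PTU in the same direction and adjusts the larger of both p-values over all genes. It called 5 of 12228 genes (0.0409%), all higher, and 0 lower; at an unadjusted p under 0.05 there were 244 higher and 109 lower. DESeq2 called 33 higher and 6 lower by the same joint rule, and limma-voom 21 and 4.

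The 5 genes that stood above both references were Hr, Gdpd5, Klhl33, Flywch2 and Ece1. Hr, a nuclear receptor corepressor and a classic target of thyroid hormone receptors in brain, stood at 16.5, 15.6, 13.7 and 12.7 CPM in Ctrl, 2.70, 5.88 and 3.17 CPM in PTU, and 48.0, 50.1, 43.1 and 47.5 CPM in PTU_TH. All 4 injected mice lay above every untreated mouse and the groups did not overlap. Hr thus passed the untreated mean 3.22-fold, from a PTU level below it, with a log2 difference of 1.69 ± 0.13 (SE) from Ctrl (chromosome 14, 70552212 to 70573548). By the edgeR joint test its adjusted p was 0.00471, the same as for Gdpd5. In Mut, Hr stood at 1.77 ± 1.54 CPM (SD, n = 4), below every Ctrl library.

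Gdpd5, a membrane phosphodiesterase that releases anchored proteins from the neuronal surface, measured 35.0, 46.5, 43.0 and 35.4 CPM in Ctrl, 46.8, 41.9 and 39.3 CPM in PTU, and 101, 110, 89.2 and 94.4 CPM in PTU_TH. Ctrl and PTU overlapped, and all injected mice were above both. The log2 difference from Ctrl was 1.30 ± 0.13 (SE), a 2.47-fold difference (chromosome 7, 99381414 to 99461877). Gdpd5 and Hr passed the joint test after the omission of each of the 11 libraries in turn.

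Ece1, the metalloprotease that matures endothelins, measured 50.9, 58.7, 54.5 and 55.5 CPM in Ctrl, 50.5, 44.4 and 46.2 CPM in PTU, and 91.7, 104, 81.1 and 97.3 CPM in PTU_TH. Flywch2, a small zinc finger gene, measured 7.17, 5.66, 6.93 and 7.44 CPM in Ctrl, 5.18, 5.74 and 3.68 CPM in PTU, and 15.8, 17.1, 15.7 and 16.2 CPM in PTU_TH. In both genes every injected mouse lay above all Ctrl and PTU libraries. The log2 difference from Ctrl was 0.77 ± 0.11 (SE) for Ece1 (chromosome 4, 137862237 to 137965229) and 1.25 ± 0.16 (SE) for Flywch2 (chromosome 17, 23776916 to 23786081). Both had a joint edgeR adjusted p of 0.0190.

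Klhl33, of the Kelch-like family, measured 2.04, 3.41, 3.24 and 1.97 CPM in Ctrl, 12.6, 14.9 and 14.2 CPM in PTU, and 35.7, 37.9, 33.1 and 39.5 CPM in PTU_TH. The 3 groups formed separate steps, and Mut (1.66 CPM) stood with Ctrl. The log2 difference of PTU_TH was 3.77 ± 0.21 (SE) from Ctrl and 1.39 ± 0.20 (SE) from PTU (chromosome 14, 50888582 to 50897507; joint edgeR adjusted p = 0.0190). Only the second of these lies within a library set.

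Limits of the joint test were these. Without 1 library the count lay between 2 and 7: it was 2 without PTU_TH replicate 1, 2 or 4, and 3 without PTU_TH replicate 3, Ctrl replicate 3 or Ctrl replicate 4. Ece1 and Klhl33 passed in 4 of the 11 omissions and Flywch2 in 3. With the Mut libraries in the fit, none of the 5 genes passed (edgeR adjusted p from 0.170 for Ece1 to 0.655 for Gdpd5), and none passed a test against 1.5-fold in both contrasts; the cause of the former was not tested.

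**Figure D2:**
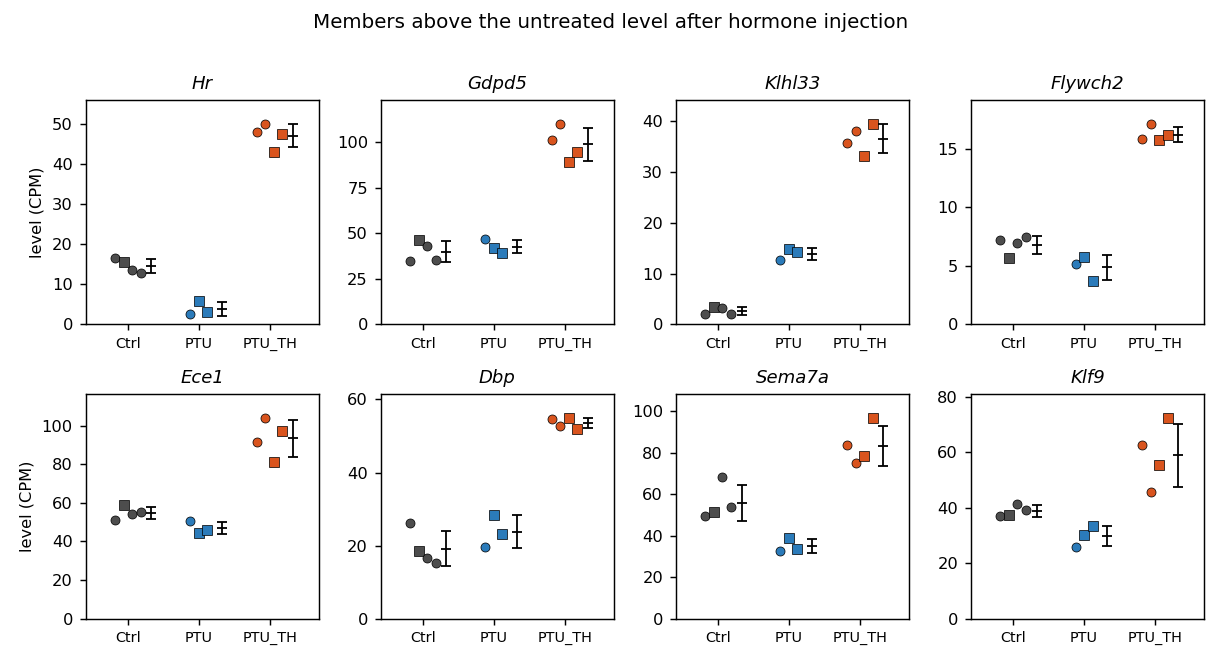
Levels (CPM, vertical) of 8 genes in each library of Ctrl (grey), PTU (blue) and PTU_TH (orange); squares mark libraries with Y-linked counts above 50 CPM, circles the others, and the bars give mean ± SD (n = 4, 3 and 4). The 4 injected libraries lie above all Ctrl and PTU libraries in each panel, and the PTU libraries of Hr, Sema7a and Klf9 lie below all Ctrl libraries.

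The promoters of these genes were looked up because a thyroid hormone receptor binds the half-site AGGTCA, often as a direct repeat with a spacer of 4 bases (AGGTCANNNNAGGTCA). RefSeq windows of GRCm38.p6, from 250 bases before to 50 after a transcript start, were matched for 3 of the 5 genes (Ece1, Klhl33 and Flywch2), with 7 windows in all; Hr and Gdpd5 were not matched. On either strand 1 of the 7 windows held the half-site, beside 16.3% of all 32851 windows, and 0 held the direct repeat, which 5 windows of the table hold (0.0152%). The window with the half-site belongs to Klhl33, on the minus strand at chr14:50897434-50897733, and is shown with the window of Flywch2 (minus strand, chr17:23786032-23786331), which lacks it. Capitals mark the half-site, read here as its complement TGACCT from base 91.
Klhl33: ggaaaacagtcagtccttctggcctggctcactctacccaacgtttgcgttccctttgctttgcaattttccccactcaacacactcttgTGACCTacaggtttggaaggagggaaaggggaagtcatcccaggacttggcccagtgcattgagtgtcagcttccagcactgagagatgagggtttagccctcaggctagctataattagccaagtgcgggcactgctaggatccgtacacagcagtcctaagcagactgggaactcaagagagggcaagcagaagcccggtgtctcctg
Flywch2: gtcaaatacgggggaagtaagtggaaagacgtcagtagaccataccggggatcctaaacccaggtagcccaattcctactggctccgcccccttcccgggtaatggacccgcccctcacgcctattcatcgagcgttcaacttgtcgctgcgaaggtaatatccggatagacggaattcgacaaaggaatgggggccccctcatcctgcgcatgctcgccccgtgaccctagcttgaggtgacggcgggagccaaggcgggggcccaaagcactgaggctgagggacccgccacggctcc
A match describes the letters of the window and is no binding site.

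Just outside the joint threshold lay genes of the same shape, named after their values were seen. Dbp, a clock-controlled transcription factor, measured 26.1, 18.4, 16.6 and 15.4 CPM in Ctrl, 19.6, 28.5 and 23.2 CPM in PTU, and 54.5, 52.7, 54.9 and 51.9 CPM in PTU_TH. Its joint edgeR adjusted p was 0.0538, and its log2 difference from Ctrl was 1.48 ± 0.16 (SE, chromosome 7, 45705088 to 45710203). Dbp shares 18.0% of its exonic bases with other genes. Trim67, a neuronal ubiquitin ligase gene, averaged 27.7 CPM in Ctrl, 18.1 in PTU and 53.2 in PTU_TH, and Lrig1, a brake on growth factor receptors, averaged 37.6, 43.0 and 69.0 CPM (joint edgeR adjusted p = 0.0625 for each). In the opposite direction the nearest was Gpnmb, a transmembrane glycoprotein, at 40.4, 38.0 and 21.9 CPM (joint edgeR adjusted p = 0.0724). Its 4 injected mice, at 19.9 to 23.3 CPM, lay below all Ctrl and PTU mice.

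Of 16 tested genes known to be induced by thyroid hormone, 6 were higher in PTU_TH than in Ctrl and 0 were lower. This was 37.5% called, beside 11.1% of all tested genes. In 14 the difference was positive, and the median log2 difference was 0.28 beside 0.04 over all tested genes. An unadjusted p under 0.05 was found for 10. DESeq2 and limma-voom also called 6 higher and 0 lower. With only the admitted genes in the fit, or with a replicate block, 5 were higher. Without genes that share exons 4 were higher, and against 1.5-fold 3. With the gene length trend removed 6 were higher and 1 lower. Against PTU, 8 of the 16 were higher with a median of 0.65, beside 0.442% of all members called higher in that comparison. The list was drawn up with earlier results of these libraries known and is no independent evidence of its direction.

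Besides Hr, Dbp and Flywch2, the called members were Klf9, Sema7a and Itga7. Klf9, a Krüppel-like transcription factor that receptors induce directly, measured 37.0, 37.4, 41.4 and 39.3 CPM in Ctrl, 26.0, 30.0 and 33.4 CPM in PTU, and 62.6, 45.6, 55.3 and 72.4 CPM in PTU_TH. Sema7a, a membrane-anchored semaphorin, measured 49.6, 51.3, 68.3 and 53.9 CPM in Ctrl, 32.6, 39.0 and 33.8 CPM in PTU, and 83.9, 74.9, 78.2 and 96.8 CPM in PTU_TH. Both were lowest with the diet and highest after the injection, without overlap between any 2 groups. Their log2 differences from Ctrl were 0.60 ± 0.14 and 0.58 ± 0.13 (SE; edgeR adjusted p = 0.00859 and 0.00708). Itga7, an integrin that binds laminin, averaged 79.4 ± 9.1 CPM in Ctrl, 64.3 in PTU and 104 ± 9 CPM in PTU_TH (SD, n = 4), a log2 difference of 0.39 (edgeR adjusted p = 0.0347) that passed in 2 of the 8 omissions of 1 library.

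Other members of the list were not called against Ctrl. Abcd2, a peroxisomal fatty acid transporter, measured 60.8, 56.1, 54.6 and 51.5 CPM in Ctrl, 39.5, 38.1 and 41.1 CPM in PTU, and 60.5, 59.2, 57.9 and 63.8 CPM in PTU_TH. The injected and untreated mice overlapped, and all of them were above the diet group. Its log2 difference was 0.11 from Ctrl, with a 95% interval of −0.11 to 0.33, and 0.61 ± 0.10 (SE) from PTU. Stac2, an adaptor of voltage-gated calcium channels, averaged 148 CPM in Ctrl, 100.2 in PTU and 180.0 in PTU_TH, and its difference from Ctrl of 0.27 had an interval of 0.02 to 0.53 and an edgeR adjusted p of 0.140. Gls2, a glutaminase, averaged 89.4, 74.5 and 109 CPM, with a difference from Ctrl of 0.28 and an edgeR adjusted p of 0.0984. The morphogen gene Shh was low in all groups, at 5.87, 3.33 and 6.66 CPM.

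The receptor machinery itself was not called. Over all tested genes 11.1% were called, and 0 calls in lists as short as the following are near that share. Nothing particular to these genes is read from the counts. Thra stood at 58.7 ± 6.5 CPM in Ctrl and 62.6 ± 9.3 CPM in PTU_TH (SD, n = 4), and its log2 difference of 0.09 had a 95% interval of −0.20 to 0.37. Thrb, the gene of the second receptor, ranged from 324 to 694 CPM in Ctrl and from 216 to 643 CPM in PTU_TH, so that its interval ran from −0.94 to 0.47. Of 17 receptor and coregulator genes the main edgeR fit called 0 in either direction, and 1 had an unadjusted p under 0.05. Of these genes, limma-voom and the fit with the length trend removed each called 1 higher. Among them Hdac3, a deacetylase of corepressor complexes, had a log2 difference of 0.31. Among 5 hormone-repressed genes the main edgeR fit and DESeq2 called 0 (median −0.12, 1 with an unadjusted p under 0.05). With upper quartile scaling, with sex as a covariate and with the length trend removed, 1 of them was called lower. Among 5 genes of transport and deiodination edgeR and DESeq2 called 0 (median 0.22, 0 with an unadjusted p under 0.05). The transporter genes Slc7a8 and Slco1c1 had differences of 0.27 and −0.97, with intervals that reached 0. Cirbp and Dgkg, of the repressed list, had differences of −0.37 and 0.18 and edgeR adjusted p-values of 0.0627 and 0.364.

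Among 19 clock genes edgeR called 2 higher, Dbp and Nr1d1, and 0 lower. This was 10.5% called, beside 11.1% of all tested genes in either direction and 5.39% called higher. On 2 calls nothing particular to clock genes is read from this share. Of the list 11 had an unadjusted p under 0.05, and DESeq2 called 3 higher and 0 lower. Dbp and Nr1d1 share 18.0% and 8.55% of their exonic bases with other genes, and without genes that share exons 0 of the list were called. Nr1d1, the heme receptor REV-ERBα, averaged 25.0 CPM in Ctrl, 51.5 in PTU and 52.6 in PTU_TH, and all 7 libraries of the latter set were above all 8 of the former. Its gene lies opposite the end of Thra, and counts at the shared exons cannot be assigned to a strand. The time of day of each dissection is not given in the sources used here.

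Genes of the perineuronal net, the proteoglycan mesh around these neurons, had 3 higher and 0 lower calls among 21 tested. This was 14.3% called, beside 11.1% of all tested genes in either direction and 5.39% called higher. With 3 calls, nothing particular to the list is read from this share. There were 17 positive differences, the median log2 difference was 0.21, and 7 had an unadjusted p under 0.05. DESeq2 called 4 higher and limma-voom 6, but 1 was higher with only the admitted genes in the fit and 2 without genes that share exons. Acan, the core proteoglycan aggrecan, measured 70.3, 64.4, 69.5 and 56.4 CPM in Ctrl, 52.7, 50.9 and 44.4 CPM in PTU, and 85.7, 97.5, 78.0 and 85.3 CPM in PTU_TH. Its groups stepped from diet to untreated to injected without overlap, with a log2 difference from Ctrl of 0.41 ± 0.11 (SE; edgeR adjusted p = 0.0252) that passed in 4 of 8 omissions. Has3, which makes the hyaluronan backbone, averaged 17.3 CPM in Ctrl, 19.4 in PTU and 27.9 in PTU_TH (log2 difference from Ctrl 0.69, edgeR adjusted p = 0.0108). Ncan, the proteoglycan neurocan, was at 36.1 CPM in Ctrl but 49.2 and 50.3 CPM in PTU and PTU_TH, so that both diet groups stood together.

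Among 36 collagen, laminin and integrin genes 4 were higher and 3 lower (19.4% called, beside 11.1% of all tested genes), and with upper quartile scaling 3 were higher and 4 lower. Col16a1, a minor collagen, averaged 110 ± 17 CPM in Ctrl, 125 in PTU and 166 ± 20 CPM in PTU_TH (SD, n = 4), and all injected mice were above all untreated mice. Col4a2, of basement membranes, ranged from 54.1 to 82.0 CPM in Ctrl, from 109 to 132 CPM in PTU and from 90.8 to 107 CPM in PTU_TH. Itga8 fell from 13.1 CPM in Ctrl to 2.55 CPM in PTU_TH, with PTU at 2.73 CPM, and Col23a1 fell from 2.97 to 1.25 CPM, with PTU at 1.30 CPM. Among 28 semaphorin and plexin genes 3 were higher (Sema7a, Sema4d at 0.92 and the co-receptor Nrp2 at 0.85, log2 differences) and 2 lower (the ligands Sema3c at −1.12 and Sema3a at −0.53). This was 17.9% called, beside 11.1% of all tested genes. Sema4d was at 26.7 CPM in Ctrl and at 47.6 and 50.8 CPM in PTU and PTU_TH. Sema3c was at 1.34 CPM in both PTU and PTU_TH, beside 2.89 CPM in Ctrl, and Nrp2 was at 3.25, 3.97 and 5.88 CPM in Ctrl, PTU and PTU_TH.

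Of 54 potassium channel genes 7 were higher and 2 lower (16.7% called), and of 30 sodium, calcium and HCN channel genes 3 were higher and 3 lower (20.0% called). Over all tested genes 5.39% were higher and 5.67% lower, 11.1% in all, and nothing particular to channel genes is read from these counts. Kcng4, a silent subunit that shapes delayed rectifier channels, measured 47.3, 77.7, 64.9 and 65.0 CPM in Ctrl, 39.1, 60.6 and 68.4 CPM in PTU, and 131, 92.6, 134 and 168 CPM in PTU_TH. Ctrl and PTU overlapped and the injected mice were above both. The log2 difference from Ctrl was 1.04 ± 0.18 (SE; edgeR adjusted p = 0.00125), and its joint edgeR adjusted p was 0.141. Scn4b, the sodium channel subunit linked to resurgent current and fast firing, averaged 108 ± 11 CPM in Ctrl, 102 in PTU and 168 ± 34 CPM in PTU_TH (SD, n = 4), a log2 difference of 0.63 (edgeR adjusted p = 0.00887). Kcng4 and Scn4b were each lowest in replicate 2 among the injected mice, the library with the highest share of counts in long genes. Both were also called against Ctrl with the gene length trend removed, and the part of that share was otherwise not tested.

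Among the other called channel genes the diet group often stood apart from Ctrl as well. The leak channel gene Kcnk1 fell from 177 CPM in Ctrl to 90.6 CPM in PTU_TH, with PTU at 66.3 CPM. Kcnk9, another leak channel, rose from 0.293 to 3.07 CPM and was at 3.21 CPM in PTU. The Ctrl libraries held 17, 6, 2 and 2 counts of Kcnk9, so the size of this rise is loosely known. Kcnt2, a sodium-activated potassium channel, fell from 6.54 to 2.45 CPM, below PTU at 4.02 CPM. Cacna2d1, the calcium channel subunit that binds gabapentin, fell from 18.3 to 7.75 CPM with PTU at 7.77 CPM, and Scn3a, a sodium channel typical of immature neurons, fell from 27.9 to 17.5 CPM with PTU between them at 22.3 CPM. Hcn3, a pacemaker channel, was at 56.4 CPM in Ctrl, 73.5 in PTU and 75.7 in PTU_TH, a log2 difference from Ctrl of 0.42 that passed in 4 of 8 omissions.

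Among 29 genes of calcium handling 3 were called higher and 1 lower, 13.8% beside 11.1% of all tested genes, which is near the background; limma-voom called 3 higher and 4 lower. Tesc, the calcium-binding protein tescalcin, measured 13.6, 24.8, 18.9 and 14.5 CPM in Ctrl, 11.5, 13.2 and 12.5 CPM in PTU, and 38.0, 36.7, 35.4 and 34.1 CPM in PTU_TH. The injected mice lay tightly together above all others, with a log2 difference from Ctrl of 1.00 ± 0.18 (SE; joint edgeR adjusted p = 0.0744). The calcium sensor Hpca was at 21.6 CPM in Ctrl, 37.9 in PTU and 35.6 in PTU_TH, and the calcium pump gene Atp2b3 at 160, 217 and 212 CPM. Both were called above Ctrl (log2 differences 0.72 and 0.40, the latter in 1 of 8 omissions), and their differences from PTU were −0.09 and −0.03. Ncald, another sensor, fell from 277 to 129 CPM, and PTU stood at 128 CPM.

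**Figure D3:**
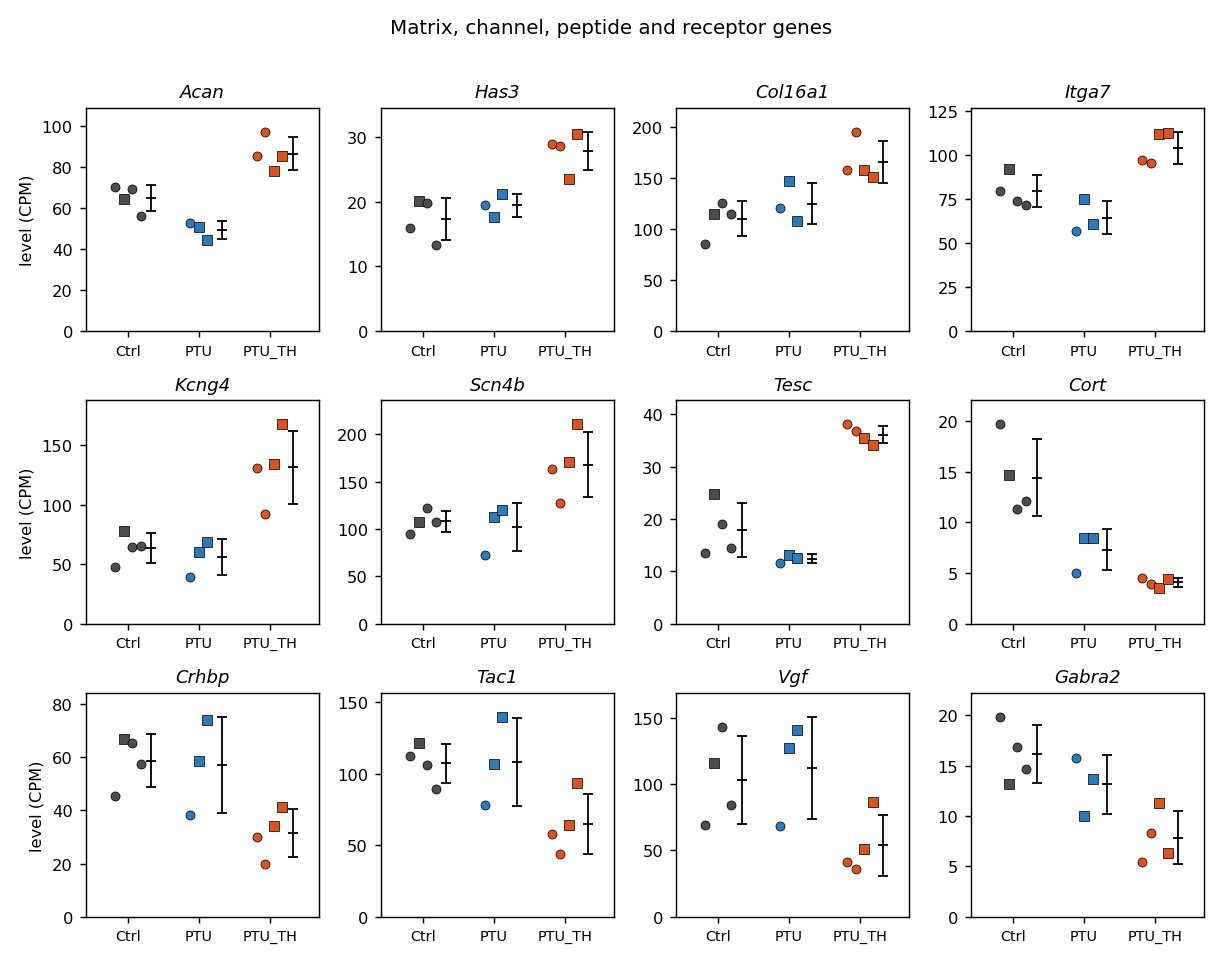
Levels (CPM, vertical) of 12 matrix, channel, calcium sensor, peptide and receptor genes in each library of Ctrl (grey), PTU (blue) and PTU_TH (orange); squares mark libraries with Y-linked counts above 50 CPM, and the bars give mean ± SD (n = 4, 3 and 4). Acan, Kcng4 and Tesc of the injected mice lie above all other libraries, and Cort and Crhbp of the injected mice lie below all Ctrl libraries. The PTU libraries of Cort also lie below all Ctrl libraries.

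Of 15 neuropeptide genes tested, 4 were lower and 0 higher (26.7% called, beside 11.1% of all tested genes). There were 10 negative differences, the median log2 difference was −0.20, and 6 had an unadjusted p under 0.05. DESeq2 called 5 lower and 0 higher, and 3 were lower with only the admitted genes in the fit or without a filter on low counts. Crhbp, which binds corticotropin-releasing hormone, measured 45.3, 66.8, 65.5 and 57.6 CPM in Ctrl, 38.2, 58.8 and 74.2 CPM in PTU, and 30.1, 19.9, 34.3 and 41.4 CPM in PTU_TH. All injected mice were below all untreated mice, by a log2 difference of −0.91 ± 0.20 (SE; edgeR adjusted p = 0.00625), and the diet group spread over the untreated range. Tac1, the substance P precursor, measured 112, 122, 106 and 89.0 CPM in Ctrl, 77.8, 107 and 139 CPM in PTU, and 57.4, 43.9, 63.8 and 93.6 CPM in PTU_TH. Injected replicate 4 lay within the untreated range and the other 3 below it (log2 difference −0.73 ± 0.20, SE; edgeR adjusted p = 0.0200).

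Vgf, a secreted neuronal protein cut into peptides, measured 68.9, 116, 143 and 84.2 CPM in Ctrl, 68.4, 127 and 141 CPM in PTU, and 41.3, 35.7, 51.4 and 86.8 CPM in PTU_TH, a log2 difference of −0.94 ± 0.28 (SE; edgeR adjusted p = 0.0336). Its groups overlapped through injected replicate 4. The difference passed in 3 of 8 omissions for Vgf and in 5 of 8 for Tac1. Both genes were highest in the 2 injected and the 2 diet libraries with Y-linked counts, which also had the smallest shares of long genes. Under the other settings, the 1.5-fold threshold aside, Tac1 was called in 13 of 13 and Vgf in 11 of 13. For Tac1 these include sex as a covariate and the length trend removed. The part of either was otherwise not tested. Against PTU the log2 differences were −0.87 for Crhbp, −0.74 for Tac1 and −1.06 for Vgf, and none was called (edgeR adjusted p = 0.276, 0.354 and 0.334). Cort, the somatostatin relative cortistatin, fell from 14.4 ± 3.8 CPM to 4.11 ± 0.45 CPM (SD, n = 4), with PTU at 7.32 CPM. All 7 PTU and PTU_TH libraries of Cort were below all 8 Ctrl and Mut libraries, so it follows the library set and the diet alike. Against PTU it was not called (edgeR adjusted p = 0.334).

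Of 24 genes of GABA synthesis and reception 4 were lower and 1 higher (20.8% called, beside 11.1% of all tested genes), with a median of −0.06. Gabra2 and Gabra4, receptor alpha subunits, fell by 1.04 and by 0.43 on the log2 scale, and Gphn, the scaffold gephyrin, fell by 0.96. Gabra4 was at 211, 174 and 157 CPM in Ctrl, PTU and PTU_TH, with overlap between PTU and PTU_TH. Gabra2 stood at 16.1 ± 2.9 CPM in Ctrl, 13.1 in PTU and 7.83 ± 2.62 CPM in PTU_TH (SD, n = 4), whereas Gphn was lower already in PTU, at 255 CPM beside 553 CPM in Ctrl and 285 CPM in PTU_TH. Without genes that share exonic bases, 1 of the GABA genes was lower. Of 28 glutamate receptor genes 3 were higher and 0 lower. This was 10.7% called, beside 11.1% of all tested genes in either direction and 5.39% called higher. Nothing particular to these receptors is read from 3 calls. There were 14 positive and 14 negative differences, 5 under an unadjusted p of 0.05, and 3 higher and 0 lower by DESeq2. Grin2d, the NMDA receptor subunit of interneurons, was at 33.6, 45.8 and 52.4 CPM in Ctrl, PTU and PTU_TH, Grin2c at 3.72, 7.43 and 9.99 CPM, and the metabotropic receptor gene Grm4 at 8.61 CPM in Ctrl and 16.8 CPM in PTU_TH, which overlapped PTU in Grm4 and Grin2d.

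Genes that tell the library sets apart held the largest differences. The 10 largest rises among genes of at least 5 CPM with groups that do not overlap were Zscan30 (4.37, annotated as a transcribed pseudogene), Plekhn1 (4.25), Zdhhc22 (4.03), St3gal1 (3.83), Klhl33 (3.77), Olfml2b (3.03), Tmem147os (2.47), Zfp606 (2.45), Platr25 (2.36) and Atoh7 (2.27), as log2 differences from Ctrl. All 10 were above all Ctrl and Mut libraries in all 7 PTU and PTU_TH libraries. Plekhn1, a lipid-binding protein gene, measured 11.9, 11.9, 10.5 and 13.5 CPM in Ctrl, 190, 288 and 240 CPM in PTU, and 228, 194, 251 and 240 CPM in PTU_TH, and averaged 13.8 CPM in Mut. Of the 10, Klhl33 alone was also above PTU by the joint test.

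The 10 largest falls, as fitted log2 differences, were Srp54b (−10.13), Rnf170 (−8.72), Yipf2 (−7.11), Nupl1 (−6.63), Rsph3b (−6.34), Sspn (−6.28), Nmbr (−6.10), Lats2 (−5.85), Borcs8 (−5.71) and Tuba1a (−5.70). For the first 3 the size and order are loosely known, because the 4 PTU_TH libraries held 5 counts of Srp54b, 12 of Rnf170 and 11 of Yipf2 in all, mostly at or under the floor of 3 counts per library. The pooled Ctrl level was 1203 times the PTU_TH level for Srp54b (exact 95% counting interval 515 to 3706), 432 times for Rnf170 (247 to 837) and 143 times for Yipf2 (79.7 to 286). Tuba1a, the main neuronal alpha-tubulin, measured 76.5, 93.8, 85.3 and 93.8 CPM in Ctrl and 1.86, 1.81, 1.39 and 1.63 CPM in PTU_TH, while Mut averaged 99.2 CPM and PTU 1.53 CPM. All 10 were below all 8 Ctrl and Mut libraries in all 7 PTU and PTU_TH libraries, and the highest PTU_TH mean among them was 1.82 CPM, of Sspn. Several have near-identical copies between which reads can be split, and the part of such splitting was not tested. Summed over copies chosen after the values were seen, Tuba1a, Tuba1b and Tuba1c gave 201 ± 22 CPM in Ctrl, 29.6 CPM in PTU and 27.7 ± 8.5 CPM in PTU_TH (SD, n = 4). Srp54a and Srp54b gave 134, 2.63 and 3.04 CPM, and Rsph3a and Rsph3b gave 89.6, 20.4 and 19.1 CPM. Of the lower genes 44.2% share an exonic base with another gene, beside 36.2% of the higher and 35.7% of all tested genes, and without such genes 468 higher and 378 lower calls were made.

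**Figure D4:**
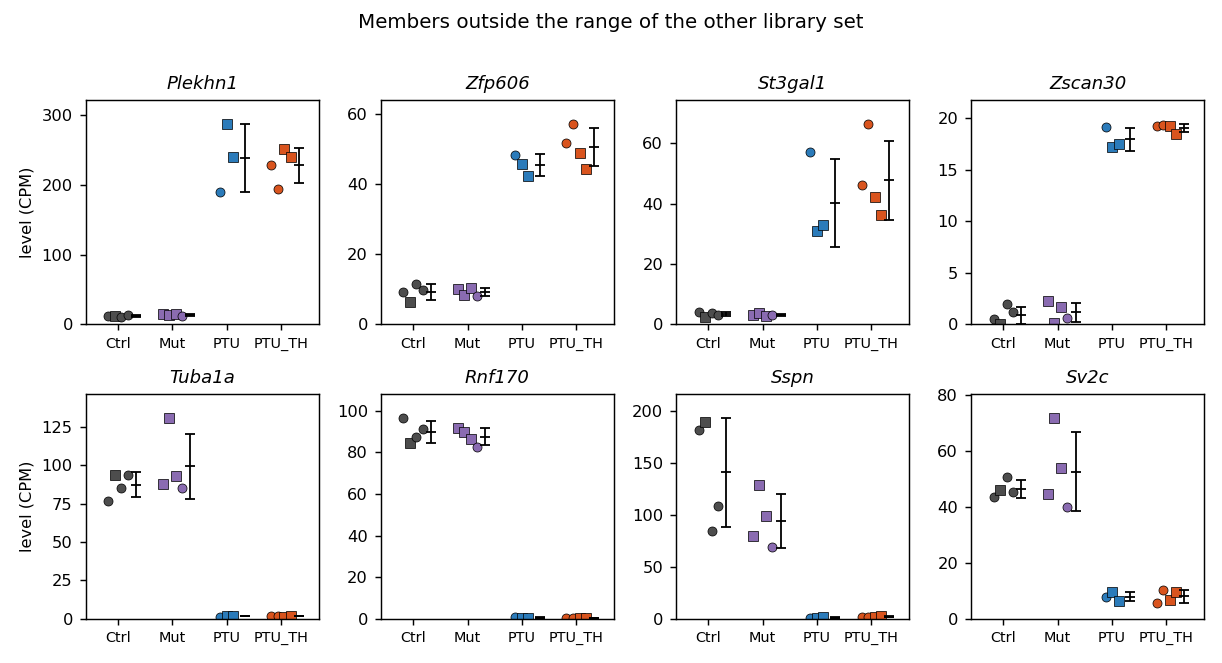
Levels (CPM, vertical) of 4 genes called higher (upper row) and 4 called lower (lower row) in each library of Ctrl (grey), Mut (purple), PTU (blue) and PTU_TH (orange); squares mark libraries with Y-linked counts above 50 CPM, and the bars give mean ± SD (n = 4, 4, 3 and 4). In every panel Ctrl stands with Mut and PTU with PTU_TH, as for Plekhn1, where Ctrl lies between 10.5 and 13.5 CPM and PTU_TH between 194 and 251 CPM.

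Called were 6.25% of the respiratory chain, 5% of the ribosomal protein and 12.9% of the cholesterol and fatty acid genes tested. Over all tested genes 11.1% were called. Of 48 respiratory chain genes 1 was higher (Sdhb, a subunit of complex II, 0.43) and 2 were lower (Ndufb9, of complex I, −1.35, and cytochrome c, Cycs, −1.29), with a median log2 difference of 0.09. This balance turned with the method: 5 genes were higher and 2 lower by DESeq2, 7 and 2 by limma-voom, and 8 and 3 without the length trend. Cycs stood at 50.9 CPM in Ctrl, 18.3 in PTU and 20.9 in PTU_TH. Of 40 ribosomal protein genes Rps14 was higher (0.83) and Rps6 lower (−0.69), and of 5 mitochondrially encoded genes edgeR and DESeq2 called 0, with 0 under an unadjusted p of 0.05. Of 31 cholesterol and fatty acid genes Hmgcs1 (−0.97) and Idi1 (−1.51), early enzymes of sterol synthesis, were lower, and Tm7sf2 (0.49) and the exporter Abca1 (0.49) were higher. Except for Abca1, the PTU_TH libraries overlapped PTU in each of these genes, as for Hmgcs1 at 54.0, 24.0 and 27.7 CPM in Ctrl, PTU and PTU_TH and Tm7sf2 at 34.0, 56.7 and 48.0 CPM.

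Of 30 heat shock and endoplasmic reticulum stress genes 3 were lower and 0 higher. This was 10% called, beside 11.1% of all tested genes in either direction and 5.67% called lower. Nothing particular to stress genes is read from 3 calls. The lower genes were the chaperones Hspa8 (−1.33) and Hsp90aa1 (−0.96) and the stress factor Atf4 (−0.48). In Hspa8 and Atf4 the PTU_TH libraries overlapped Ctrl, and Atf4 passed in 3 of 8 omissions. Of the list 9 had an unadjusted p under 0.05, and DESeq2 called 2 higher and 4 lower. Hspa8 was at 388, 129 and 155 CPM in Ctrl, PTU and PTU_TH. Of 15 cytoskeletal genes the 3 called, Tuba1a, Tuba1b (−1.57) and Stmn1 (−0.90), were lower in both diet groups. Among 32 vesicle release genes Sv2c (−2.53) and Unc13c (−1.34) were lower and Rph3a (0.63) was higher, with PTU and PTU_TH at 7.75 and 7.99 CPM for Sv2c and at 35.4 and 38.1 CPM for Rph3a. Of 24 RNA-binding genes Tra2b (−0.46) and Nova1 (−0.52) were lower, and Tra2b was at 117, 81.0 and 85.6 CPM in Ctrl, PTU and PTU_TH. Of 25 immediate early genes Egr3 was higher (2.86), with 3.72 CPM in PTU beside 2.62 CPM in PTU_TH and 0.353 CPM in Ctrl. Bdnf (−1.09), a neurotrophin, and Vgf were lower, and Bdnf passed in 2 of 8 omissions. Called were 20% of the cytoskeletal, 12.5% of the vesicle release, 8.33% of the RNA-binding and 12% of the immediate early genes tested. Over all tested genes 11.1% were called.

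Among markers of other neurons, 1 of 9 other interneuron markers (Adarb2, −1.47) and 1 of 17 excitatory markers (Nrn1, −1.80) were called, both lower. These shares, 11.1% and 5.88%, stand beside 11.1% of all tested genes. Adarb2 and Nrn1 were low in PTU as well, at 3.84 and 2.14 CPM beside 8.52 and 6.70 CPM in Ctrl. Of 12 astrocyte, 12 oligodendrocyte and 5 vascular markers edgeR called 0 in either direction, with 1, 1 and 0 under an unadjusted p of 0.05; DESeq2 called 0 of each, and limma-voom called 1 vascular marker higher. Slco1c1 and Sox9 of astrocytes were at 1.83 and 1.19 CPM in Ctrl. Mbp of oligodendrocytes ranged from 43.4 to 49.2 CPM in Ctrl and from 38.1 to 89.6 CPM in PTU_TH.

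**Figure D5:**
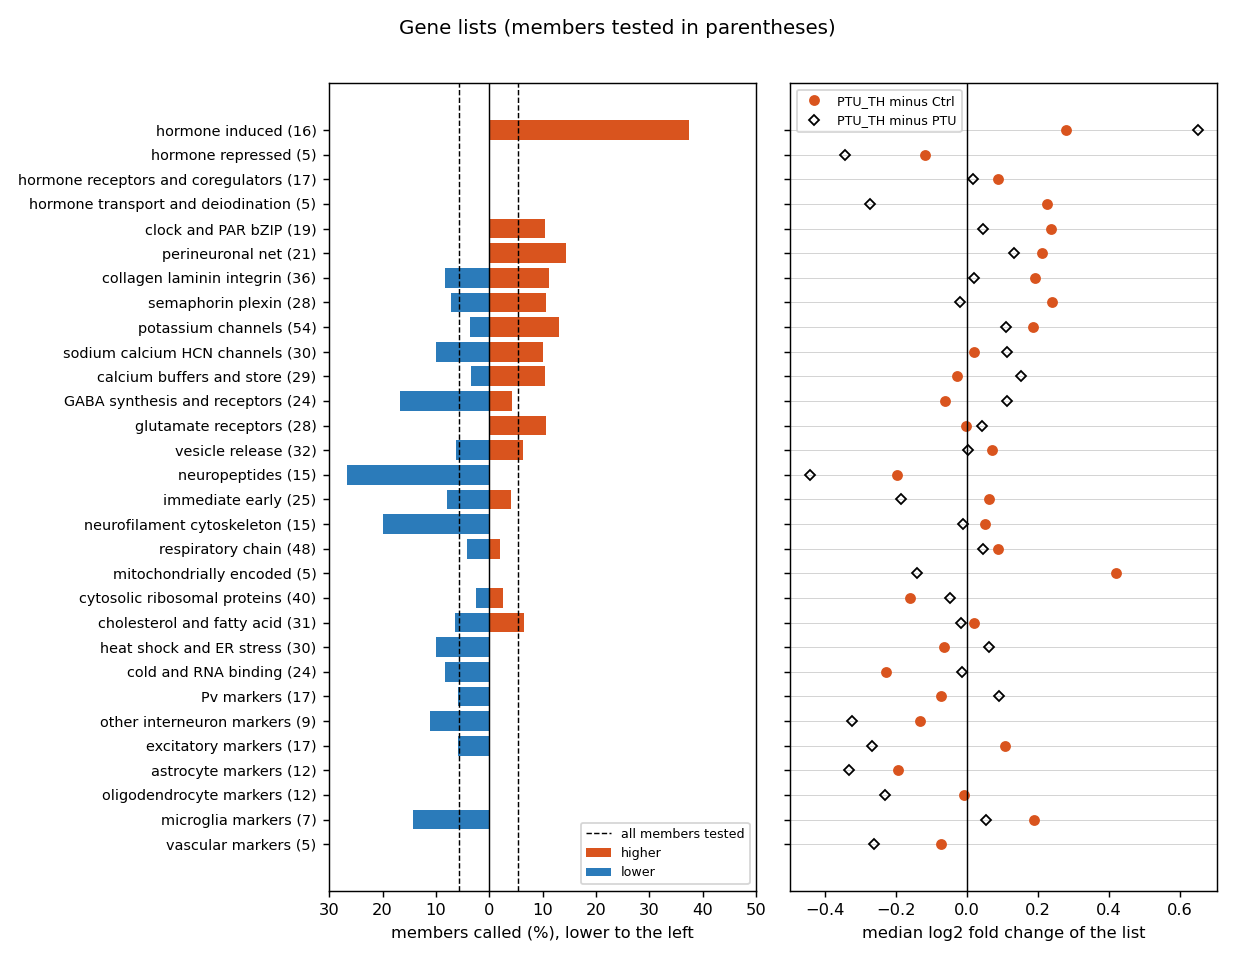
Left, percent of the tested members of each of 30 gene lists called higher (orange, to the right) or lower (blue, to the left) in PTU_TH against Ctrl, with dashed lines at 5.39% and 5.67% for all tested genes; right, the median log2 fold change of each list against Ctrl (filled) and against PTU (open). Hormone-induced genes have 6 of 16 called higher and the medians 0.28 and 0.65, and neuropeptide genes have 4 of 15 called lower.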

How the data were processed

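RNA of sorted nuclei was amplified with a SMART-Seq v4 kit, made into Nextera XT libraries and sequenced as single reads, per the labels' protocols; neither kit marks strand. The authors deposited raw counts per gene, 1 table per library, made on mm10 (GRCm38) with Bowtie2 2.5.3 and HTSeq, per the submitters' processing notes. The sources used here do not give annotation release, counting mode or strand setting, which leaves counts uncertain where genes overlap, lie antisense or have close copies. Tables of PTU and PTU_TH list 55341 genes and those of Ctrl and Mut 48321; the 46380 shared symbols entered every fit.

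Counts were fitted with edgeR 4.0.16 in R 4.3.3 (TMM, filterByExpr at its minimum count of 10, quasi-likelihood fit with robust option, Benjamini-Hochberg over all genes of the fit): PTU_TH against Ctrl on their 8 libraries (15814 genes, biological coefficient of variation 21.9%), and a joint test on 11 libraries with PTU (15883 genes, 22.7%). In simulated data with 200 changed genes of at least 5 CPM, the former recovered 88% of 2-fold and 100% of 4-fold changes with 11 of 199 calls false, and the latter 63% and 99% with 0 of 162 false. Each gene was drawn independently in the simulation. Its values therefore do not cover shifts that many genes of a library share, as in the share of long genes. Ctrl and PTU had the same mean in the simulation, and only PTU_TH was changed. The values for the joint test therefore do not cover genes that differ between PTU and Ctrl, such as those that separated the library sets. Every pair of libraries of a group differed by more than counting noise (a chi-square of 7.48 to 111 for each degree of freedom), and each was kept as 1 mouse. SE is the log2 difference divided by the root of F. Positions are from GENCODE M21. Intervals cover 95%.

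The compared groups, the 30 gene lists and the rules were chosen with earlier results of these data known. Named are the 10 largest rises and falls at 5 CPM or more without overlap, the genes of the joint test, up to 4 called genes of each list (2 where none was called), the hormone-induced genes described, and Hr, Klf9, Dbp, Thra, Thrb and Pvalb; other names were chosen after their values were seen, and some genes that meet the rule are not reported here. Alternatives were RLE and upper quartile scaling, whole-file library sizes, DESeq2 1.42.0, limma-voom (limma 3.58.1), other filters, admitted genes only, all groups in 1 fit, sex read from Y-linked counts over 50 CPM, removal of a gene length trend, a 1.5-fold threshold, a replicate block and the omission of each library; exclusion of genes with shared exons was added after seeing the data.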

Additional observations from a re-analysis of the deposited data

Results flagged for a closer look

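In 8 of 198 groups of 4 libraries examined for the named genes, 1 library stood apart from the other 3 by Dixon's ratio, near the 1 in 20 that chance flags. Zscan30 was lowest in PTU_TH replicate 4 (18.4 CPM, the others 19.2 to 19.3), Scn3a was lowest in PTU_TH replicate 4 (16.9 CPM, the others 17.7 to 17.8), Srp54b was highest in PTU_TH replicate 3 (0.154 CPM, the others at most 0.0743) and Nmbr was highest in PTU_TH replicate 4 (1.35 CPM, the others at most 0.743).

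Cirbp reached 51.9 CPM in PTU_TH replicate 3, inside the Ctrl range, with the others at 40.8 to 41.4. PTU_TH replicate 2, which had the largest share of counts in long genes, was highest for Col16a1 (195 CPM, the others 151 to 158). In Ctrl, Cacna2d1 was highest in replicate 1 (26.7 CPM, the others 14.6 to 16.6) and Cycs in replicate 2 (66.4 CPM, the others 43.8 to 47.6).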

How the results depend on the processing

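Of the values of single genes under other settings, 1510 kept direction and side of the threshold, 90 kept direction but no longer passed, 6 newly passed and 1 changed sign. The 1347 calls became 2194 with limma-voom, 2125 with the gene length trend removed, 846 without genes that share exons and 362 against 1.5-fold, and lay between 869 and 1608 when 1 library was left out. The 657 higher calls became 1005 with DESeq2, 1213 with limma-voom, 359 with admitted genes only, 1129 without the length trend and 83 against 1.5-fold, and lay between 355 and 791 on omission. The 690 lower calls became 279 against 1.5-fold and 378 without shared exons, and lay between 500 and 817 on omission. The 5 joint calls became 39 with DESeq2, 25 with limma-voom, 9 without a filter, 29 with sex as a covariate, 36 without the length trend, and 0 with all groups in 1 fit or against 1.5-fold; on omission they lay between 2 and 7. The causes were not tested, beyond fewer genes or libraries entering.

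The replicate numbers do not pair the mice: same-numbered Ctrl and PTU_TH libraries had correlated deviations of 0.0901, −0.208, −0.0463 and 0.0808. With a replicate block, 1057 calls were made, 496 higher and 561 lower.

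Log2 differences changed sign for 4 genes, none of them called. Nefm became −0.00089 with limma-voom. On omission of 1 library Nefm lay between −0.0096 and 0.28, Nefh between −0.056 and 0.30, Nrgn between −0.33 and 0.13 and Thrb between −0.59 and 0.036. Depth sets a floor of 3 counts, 0.121 to 0.238 CPM in these libraries, which covers counting error only.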
